A study of Mus musculus with 21 samples.

Results

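The comparison was BMH-21 for 2 h against untreated cells, with 3 RNA-seq libraries in each group and 6 of the 21 libraries of the study. Its members were all genes whose deposited log2 value exceeded 0 in 3 or more of the 21 libraries. This rule kept 14666 of the 20900 gene symbols in the table and set aside 6234. All libraries held poly(A) RNA from E14, a mouse embryonic stem cell line of the 129 strain grown in serum with leukaemia inhibitory factor. Cells were plated the day before, and the medium was then replaced by medium with 1 µM BMH-21. The untreated group was taken at 0 h and no inhibitor was given. No group received fresh medium without inhibitor for 2 h, so the inhibitor and the medium change cannot be told apart in this comparison. The labels name a single cell line and do not say whether replicates were separate cultures. The p-values thus measure the spread between libraries of a group, which may be technical. This spread was pooled over all 21 libraries and drawn towards a trend shared by all genes. The groups used beside them were CX-5461, another RNA polymerase I inhibitor, at 1 µM for 2 h, and BMH-21 at 1 µM for 4 h, each with 3 libraries.

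RNA polymerase I transcribes the ribosomal RNA precursor in the nucleolus, and BMH-21 is a small molecule that binds GC-rich DNA and blocks this polymerase. When ribosome assembly is disturbed, free ribosomal proteins bind MDM2, the ubiquitin ligase that marks p53 for degradation, and p53 then activates genes of cell cycle arrest, repair and cell death. The aryl hydrocarbon receptor is a separate transcription factor that is activated by many planar aromatic compounds. Together with its partner ARNT it binds a short element in DNA and switches on the CYP1 enzymes, which oxidise such compounds, and the feedback inhibitors AHRR and TIPARP.

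Promoter sequences are shown for the listed targets of the receptor and of p53 in which the element of the factor was found. Each is the 250 bases before a RefSeq start site (GRCm38.p6), 5′ to 3′ on the strand of the gene. In the first 4, capitals mark the core of the xenobiotic response element, GCGTG, or its other strand, CACGC. None of the marked sites overlapped.
Cyp1a1: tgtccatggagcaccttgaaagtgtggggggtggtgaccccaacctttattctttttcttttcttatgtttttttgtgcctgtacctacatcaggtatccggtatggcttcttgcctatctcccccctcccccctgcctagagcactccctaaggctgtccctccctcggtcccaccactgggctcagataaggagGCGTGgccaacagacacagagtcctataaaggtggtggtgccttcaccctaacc
Cyp1b1: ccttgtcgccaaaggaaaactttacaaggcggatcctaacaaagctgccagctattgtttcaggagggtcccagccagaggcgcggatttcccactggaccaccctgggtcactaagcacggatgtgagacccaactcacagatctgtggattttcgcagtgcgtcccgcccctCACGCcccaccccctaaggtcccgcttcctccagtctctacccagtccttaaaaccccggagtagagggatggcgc
Ahrr: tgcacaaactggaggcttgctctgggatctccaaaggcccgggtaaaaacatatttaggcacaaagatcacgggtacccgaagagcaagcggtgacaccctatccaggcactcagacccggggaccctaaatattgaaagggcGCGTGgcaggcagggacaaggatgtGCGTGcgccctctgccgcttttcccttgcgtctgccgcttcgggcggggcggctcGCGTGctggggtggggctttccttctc
Tiparp: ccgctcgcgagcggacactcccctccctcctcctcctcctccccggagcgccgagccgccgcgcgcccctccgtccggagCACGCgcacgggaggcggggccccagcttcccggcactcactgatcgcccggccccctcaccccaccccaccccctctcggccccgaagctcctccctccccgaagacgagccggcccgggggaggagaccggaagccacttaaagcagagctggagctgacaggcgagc
The Cyp1a1 window is chr9:57697363-57697612 on the plus strand and holds its site at position -54, counted from the start site to the first base of the core. The Cyp1b1 window is chr17:79715062-79715311 on the minus strand, with a site at -76. Ahrr had 3 sites, at -107, -82 and -27 (chr13:74292332-74292581, minus strand), and Tiparp had 1 at -170 (chr3:65528197-65528446, plus strand). No such letters were found in the windows of Nqo1 (chr8:107403206-107403455) or Cyp1a2 (chr9:57683656-57683905). The core was found in 28.2% of 32851 promoter windows of this length and in 43.1% of the 14009 windows of tested genes, so a match is common. It was found for 4 of the 7 listed receptor targets that had a window.

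In the next 3 windows, capitals mark a p53 response element, searched as a pair of adjacent half-sites with at most 1 mismatch. Both strands were covered by the search.
Cdkn1a: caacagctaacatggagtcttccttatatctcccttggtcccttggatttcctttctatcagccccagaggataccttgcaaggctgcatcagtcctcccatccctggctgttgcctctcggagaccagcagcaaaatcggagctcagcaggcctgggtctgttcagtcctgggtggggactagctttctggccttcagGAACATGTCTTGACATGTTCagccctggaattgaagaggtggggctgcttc
Ccng1: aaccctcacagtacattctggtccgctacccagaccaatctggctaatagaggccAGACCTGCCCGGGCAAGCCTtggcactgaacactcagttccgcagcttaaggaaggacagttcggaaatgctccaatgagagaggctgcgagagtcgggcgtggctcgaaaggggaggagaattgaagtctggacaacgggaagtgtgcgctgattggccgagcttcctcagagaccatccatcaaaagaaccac
Rps27l: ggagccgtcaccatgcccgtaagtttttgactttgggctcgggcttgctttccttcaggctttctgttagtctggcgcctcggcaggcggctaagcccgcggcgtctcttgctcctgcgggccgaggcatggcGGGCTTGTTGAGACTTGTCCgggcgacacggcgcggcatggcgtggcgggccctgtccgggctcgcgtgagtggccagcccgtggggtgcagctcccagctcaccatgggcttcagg
The Cdkn1a element starts at -51 (chr17:29090729-29090978, plus strand), and a further Cdkn1a window at chr17:29093519-29093768 held none. The Ccng1 element starts at -195 (chr11:40755287-40755536, minus strand) and that of Rps27l, a relative of ribosomal protein S27, at -117 (chr9:66946163-66946412, plus strand). Only 25 of 32851 windows (0.0761%) held this element, among them the windows of 7 tested genes. These 7 were found by sequence and not by expression. Cdkn1a, Calhm2, Ccng1 and Sptbn4 were called higher, by 2.67, 2.04, 1.60 and 0.44 on the log2 scale. Bco1 (-0.50), Mthfd1 (-0.02) and Rps27l (0.09) did not pass the test. Of the 29 listed p53 targets with a window, 3 held the element.

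The 2 h libraries differed from untreated ones by a moderate number of genes and by few large changes. A gene was called when limma's adjusted p was under 0.05 with the same sign both as deposited and after each library was centred on its median. Differences, SE and adjusted p-values of single genes are from the fit as deposited unless another is named. Of 14666 genes, 1237 were called higher (8.43%) and 1621 lower (11.1%). Each list count given below is to be read beside these shares. The median rise was 0.74 on the log2 scale (quartiles 0.485 and 1.19) and the median fall -0.449 (quartiles -0.614 and -0.363). Changes of at least 2-fold in both fits were found for 411 higher and 63 lower genes, and of at least 4-fold for 78 higher and 1 lower gene. That 1 gene was Myo7b, an unconventional myosin with only 4 to 9 reads in untreated libraries. It was named after its value was seen.

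Genes called higher started from low levels. Their median untreated log2 value was 1.74, against 4.44 for genes called lower and 4.45 for all genes tested. The lower quartile was -0.542 for genes called higher and 2.05 for all genes tested, and 384 of the 1237 had an untreated mean below 0. The plot of the difference against the untreated level shows this. Of the tested genes, 1010 had no untreated library above 0, and 98 of these had all 3 treated libraries above 0. All 1010 could pass the filter only through treated libraries, of either inhibitor at any time. The number of 98 and the low start of genes called higher thus follow in part from the filter and support no statement about the response. Over all genes, the 3 treated and 3 untreated values did not overlap for 4484 (30.6%), and among called genes for 1152 of those higher and 1585 of those lower.

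**Figure D1:**
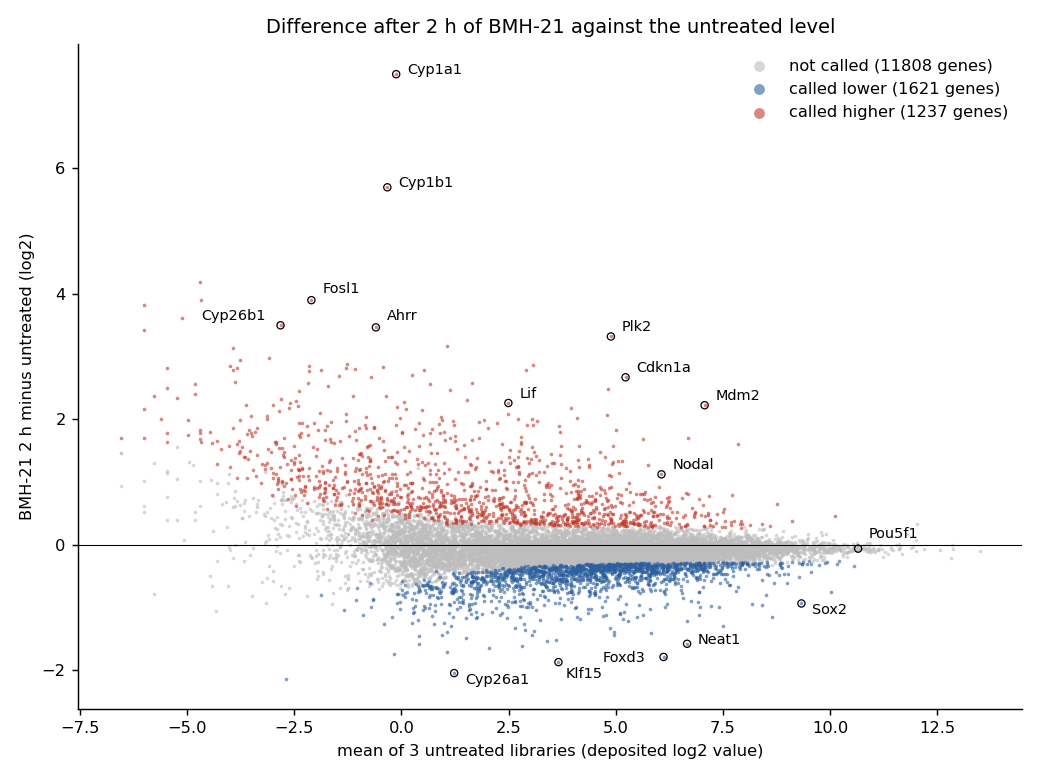
Each point is 1 of 14666 genes, with the mean of the 3 untreated libraries (deposited log2 value) on the x axis and BMH-21 2 h minus untreated (log2) on the y axis. The 1237 genes called higher are red and reach 7.50 at Cyp1a1, the 1621 called lower are blue, most of them between -0.614 and -0.266, and the other genes are grey.

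The balance of rises and falls moved with the scaling and with single libraries. Of the calls, 43.3% were higher. The deposited scale alone gave 1243 higher and 1648 lower, and centring alone 2725 and 2560. Median-ratio factors gave 2823 and 2420, or 53.8% higher, and quantile normalization 2187 and 2447. The median difference over all genes was -0.0748 as deposited and 0.00847 with median-ratio factors. Library medians ran from 4.25 to 4.48 in BMH-21 libraries and from 4.34 to 4.50 in untreated ones. More genes were higher than lower without BMH-21 replicate 1 (1256 higher, 846 lower), without untreated replicate 1 (1130 and 969) and without untreated replicate 2 (1107 and 925). Small falls, near -0.3, are thus the least firm of the values that follow. List counts given below for the other scalings stand beside 2187 to 2823 genes higher and 2420 to 2560 lower. Those for fits without 1 library stand beside 990 to 1256 higher and 846 to 1804 lower. Calls over all genes at an unadjusted p were not counted, so list counts at that threshold lack a background. No gene was called with opposite signs in the deposited and centred fits. Rai2 was the only called gene whose sign changed under median-ratio or quantile scaling, from 0.62 to -0.03.

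The 6 libraries held 48214123 to 56635321 reads over the genes of the table, where a log2 value of 0 stands for 44 to 48 reads and 3 reads for -3.79 to -3.68. Embryonic stem cell markers were present in both groups, with Pou5f1 at 68329 to 79331 reads. Summed over 8 such markers, treated libraries had 3670 to 3770 CPM (reads scaled to library size) and untreated ones 4610 to 4630, and 4 of the 8 were called lower. Fibroblast markers, which would come from feeder cells, summed to 55.7 to 58.2 against 54.9 to 59.1 CPM over 12 genes. Among them, Thy1 had 920 to 1033 reads against 1011 to 1093 and Acta2 773 to 1021 against 848 to 1175, while Lum had 0 or 1 read and Postn 2 to 4 against 0 to 3. Of the 7 fibroblast markers tested, Col1a1 (0.35) was called, its groups overlapped, and the call was lost without BMH-21 replicate 2 or 3 or untreated replicate 3. Trophectoderm markers summed to 58.8 to 63.2 against 70.5 to 74.4 and primitive endoderm markers to 17.7 to 19 against 16.5 to 17.7. Neural markers gave 54.8 to 57.1 against 46.8 to 59.7 and mesoderm markers 4.98 to 5.24 against 5.43 to 5.75. The part of other cell types in the results was not tested. Values are shares of the poly(A) RNA of a library, and the total RNA per cell was not measured.

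Targets of the aryl hydrocarbon receptor showed the largest rises of the whole comparison. Of 10 listed targets 8 were tested. With limma, 6 of them rose (75%, against 8.43% of all genes) and 0 fell, with the same numbers at an unadjusted p under 0.05. The median over the 8 was 1.49 as deposited, against -0.0748 over all genes tested. Of the 8, 2 passed the filter with no untreated library above 0, namely Cyp1b1 and Ahrr. Both are among the 6 that rose, so the 75% rests in part on genes that passed through treated libraries alone. The 6 calls were made in each of the 6 fits that left out 1 library.

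Cyp1a1, the classical receptor target and a monooxygenase of aromatic hydrocarbons (chr9:57687928-57703824), had log2 values of 7.29, 7.45 and 7.38 with BMH-21 and -0.07, 0.34 and -0.64 without. In reads, this was 7383 to 8456 against 30 to 57. The groups were far apart, and the difference of 7.50 (SE 0.14, adjusted p = 1.9e-82) is 181-fold. Cyp1b1, the related enzyme of extrahepatic tissue (chr17:79701537-79715061), stood at 5.20, 5.51 and 5.39 against -0.21, -0.10 and -0.68. Its difference was 5.70, or 51.8-fold (SE 0.15, adjusted p = 1.2e-66). The 2 largest rises by the naming rule were thus both CYP1 enzymes.

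The feedback inhibitors of the receptor rose less. Ahrr, the repressor that competes for ARNT (chr13:74211118-74292331), had 2.73, 2.93 and 2.93 against -0.48, -0.67 and -0.64, a difference of 3.46 or 11-fold (adjusted p = 7.2e-29). Tiparp, the ADP-ribosyltransferase that modifies the receptor (chr3:65528410-65555518), had 6.89, 7.16 and 7.06 against 5.84, 5.73 and 5.70, a difference of 1.28 (adjusted p = 5.6e-19). In each gene all treated values lay above all untreated ones. Cyp1a2, the liver-type CYP1 enzyme, rose by 1.71 (2.68, 2.89 and 2.92 against 1.16, 1.29 and 0.92). Nqo1, a quinone reductase that the oxidative stress factor NRF2 also activates, rose by 0.49 (5.35, 5.60 and 5.36 against 5.02, 5.00 and 4.81). Aldh3a1, an aldehyde dehydrogenase, and Cyp2s1, a further cytochrome P450, did not pass (0.08 and -0.10), and Ugt1a6a and Ugt1a6b were below the filter.

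The receptor and its partners showed small differences or none that passed the test. Of 6 genes of the receptor complex, 1 was called. Ahr itself was at 3.50, 3.73 and 3.79 against 3.21, 3.52 and 3.21, a difference of 0.36 (adjusted p = 0.028). The groups overlapped, and the call was lost without BMH-21 replicate 2 or 3 or untreated replicate 1 or 3, where the difference was 0.30 to 0.46 over the 6 fits. Centring, median-ratio or quantile scaling gave 2 or 3 higher genes of the 6. Arnt (-0.19), Arnt2 (0.29), Hsp90ab1 (-0.01) and Ptges3 (-0.16) were not called.

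**Figure D2:**
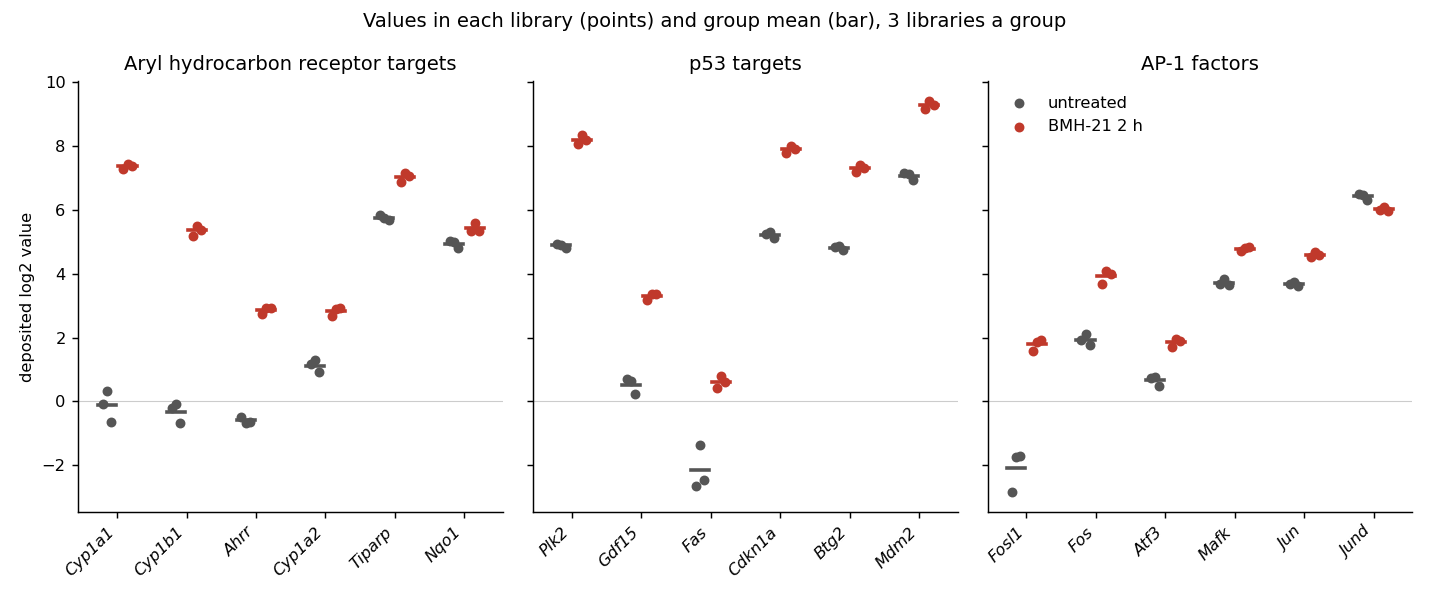
Deposited log2 values of 6 receptor targets, 6 p53 targets and 6 AP-1 factors in each library (points) with the group mean (bar), untreated in grey and BMH-21 2 h in red, 3 libraries a group. No treated point overlaps an untreated one in any of these genes, Cyp1a1 stands at 7.29 to 7.45 against -0.64 to 0.34, and Jund is the only gene shown that is lower with BMH-21.

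Targets of p53 rose broadly. Of 38 listed targets 37 were tested, and 28 rose (75.7%, against 8.43% of all genes) and 0 fell with limma. At an unadjusted p under 0.05 the numbers were 28 and 1. Of the 37, 1 (Fas) passed the filter with no untreated library above 0. The median over the 37 was 0.79, and leaving out 1 library gave 26 to 28 risen targets. The largest rise was Plk2, a polo-like kinase of the stress response (chr13:110395046-110400844). It had 8.08, 8.34 and 8.20 against 4.93, 4.91 and 4.82, a difference of 3.32 or 9.98-fold (SE 0.11, adjusted p = 1.0e-57). Cdkn1a, which encodes the cyclin-dependent kinase inhibitor p21 (chr17:29090976-29100727), had 7.79, 8.00 and 7.91 against 5.26, 5.32 and 5.11. The treated and untreated values did not overlap, and the difference was 2.67 or 6.36-fold (SE 0.10, adjusted p = 3.0e-48).

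Feedback regulators, arrest genes and cell death genes all had members that rose. Mdm2, the ligase that degrades p53, rose by 2.22 (9.16, 9.43 and 9.30 against 7.15, 7.14 and 6.93). Btg2, an antiproliferative factor, rose by 2.49, Ccng1, which encodes cyclin G1, by 1.60, and Ppm1d, a phosphatase that ends the p53 response, by 0.81. Among genes of cell death, Fas, a death receptor, rose by 2.78. Its values were 0.42, 0.81 and 0.59 against -2.64, -1.38 and -2.48, which is 63 to 84 reads against 7 to 17, and the difference was 1.90 with quantile normalization and 0.61 with values below 0 set to 0. The BH3-only genes Bbc3 and Pmaip1 rose by 2.02 and 1.90, and Apaf1, of the apoptosome, by 0.82. Bax, an executioner, did not pass (0.04).

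Other members covered stress, repair and secreted products. Gdf15, a secreted stress cytokine, rose by 2.78 (3.18, 3.36 and 3.37 against 0.69, 0.65 and 0.23), Ddit4, an inhibitor of mTORC1, by 2.07, and Sesn2, which also restrains mTORC1, by 1.27. The receptor gene Eda2r rose by 1.83, Trp53inp1 by 1.71, the translesion polymerase Polk by 1.57 and Phlda3, an AKT inhibitor, by 1.57. Targets that did not pass were Rrm2b (0.24), Ei24 (0.11), Triap1 (0.09), Rps27l (0.09), Pvt1 (0.05), Sesn1 (0.00), Tigar (-0.21) and Ddb2 (-0.31). Smaller called rises ended at Aen (0.38), Zmat3 (0.31) and Plk3 (0.30). Among 7 tested regulators and relatives of p53, Trp73 rose by 1.91 (4.67, 4.94 and 4.88 against 2.97, 3.03 and 2.76). Trp53 (-0.12), Mdm4 (0.28), Usp7 (-0.11), Rpl5 (-0.07) and Rpl11 (-0.07) were not called. Without BMH-21 replicate 1, 2 of the 7 were called higher.

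AP-1, the dimer of FOS and JUN proteins that responds to growth signals and stress, changed at most of its genes. Of 15 listed AP-1 factors and partners 13 were tested, with a median of 0.91. Of these, 10 rose (76.9%, against 8.43% of all genes) and 2 fell (15.4%, against 11.1%). Of the 13, 3 passed the filter with no untreated library above 0, Fosl1 among them, so the share that rose rests in part on such genes. Fosl1, which encodes FRA-1 (chr19:5447547-5455946), had 1.58, 1.86 and 1.94 against -2.85, -1.75 and -1.71. That is 141 to 175 reads against 6 to 14, with no overlap. The difference of 3.90 (14.9-fold, SE 0.17, adjusted p = 2.8e-43) was 3.00 with quantile normalization and 1.79 with values below 0 set to 0. Fos rose by 1.98 (3.67, 4.08 and 4.00 against 1.94, 2.10 and 1.76), Atf3 by 1.18 and Jun by 0.91. Mafk (1.07), Fosb (0.93), Fosl2 (0.68), Junb (0.46) and Maff (0.36) rose as well. Jund fell by 0.40 and Mafg by 0.35, and Jdp2 (-0.35) was not called. Only 1 of these 2 falls was called without BMH-21 replicate 1 or untreated replicate 2.

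The other immediate early genes, which respond to growth factors without new protein synthesis, went both ways. Of 29 tested, 14 rose (48.3%) and 9 fell (31%), against 8.43% and 11.1% of all genes. Leaving out 1 library gave 11 to 14 rises and 7 to 10 falls. Of the 29, 2 passed the filter with no untreated library above 0. Beside Plk2 and Btg2, rises were found for the phosphatase gene Dusp2 (1.84), Btg1 (1.57), Ier5 (1.26) and the zinc finger factor Egr3. Egr3 rose by 1.22 from 6 to 16 reads to 19 to 23 reads, and its call was lost with quantile normalization (0.47) and with values below 0 set to 0. Egr1 rose by 0.39 and Cyr61 by 0.85. Falls were found for Csrnp1 (-1.02), the kinase gene Sgk1 (-0.96), Ctgf (-0.95), Trib1 (-0.70) and the mRNA decay factor Zfp36l2 (-0.63). Myc fell by 0.32, a call that was lost without BMH-21 replicate 1 or 3 or untreated replicate 1 or 2. Ier2 (-0.27) and Ier3 (-0.01) were not called.

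Signalling pathways of stem cells had members called in both directions. ERK output had 4 of 19 tested genes higher and 4 lower (21.1% each, against 8.43% and 11.1% of all genes). Lif, the cytokine that is also added to the medium, rose by 2.26 (4.58, 4.90 and 4.79 against 2.51, 2.49 and 2.48). Errfi1 (0.72), an inhibitor of the EGF receptor, and Epha2 (0.63) rose, while the Sprouty feedback inhibitors Spry4 (-1.30), Spry1 (-1.01) and Spry2 (-0.99) fell. Dusp6 (-0.29) and Etv4 (0.14), common readouts of ERK activity, were not called. The other scalings gave 7 higher and 6 to 8 lower. Of 11 LIF and STAT3 targets, 2 rose (18.2%) and 6 fell (54.5%). Pim1, a survival kinase, fell by 1.41 (4.29, 4.49 and 4.44 against 5.81, 5.88 and 5.76). Socs3, a feedback inhibitor of the receptor, fell by 0.47 and Lifr by 0.54, whereas Socs1 rose by 0.90 and Cish by 0.68.

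The BMP and Nodal pathway gave 4 higher (20%) and 6 lower (30%) of 20 tested genes, against 8.43% and 11.1% of all genes. The counts were the same in each fit without 1 library. Of the 20, 2 passed the filter with no untreated library above 0. The ligand genes moved apart. Nodal rose by 1.12 (7.08, 7.26 and 7.23 against 6.13, 6.09 and 5.98) and Bmp7 by 0.57, and Bmp4 fell by 1.07 (4.02, 4.16 and 4.22 against 5.33, 5.14 and 5.14). The BMP-responsive inhibitors of differentiation Id1 and Id3 fell by 0.98 and 0.92, and Id4 rose by 0.73. The Nodal targets Lefty1 (-0.13) and Lefty2 (-0.24) were not called. Of 14 WNT targets 3 rose (Wnt8a 0.77, Lgr5 0.66, Dkk1 0.56) and 3 fell (the receptor gene Fzd7 -0.95, Sp5 -0.94, Axin2 -0.32). Each share was 21.4%. The Axin2 call was lost in 5 of the 6 fits without 1 library, and the range of its difference over them was -0.38 to -0.21. With BMH-21 replicate 3 left out, it was kept. The Dkk1 call was lost without BMH-21 replicate 2 or untreated replicate 1 or 2.

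Retinoic acid is cleared by CYP26 enzymes, and the pair of them tested changed in opposite directions. Cyp26a1 had -0.84, -1.10 and -0.51 against 1.21, 1.27 and 1.21 (chr19:37697798-37701536), and its difference of -2.04 was the largest fall by the naming rule. Cyp26b1 had 0.53, 0.81 and 0.68 against -1.91, -3.70 and -2.87, a rise of 3.50 from 3 to 12 reads. It was 2.39 with quantile normalization, 2.78 with an offset of 5 reads and 0.67 with values below 0 set to 0, and Cyp26a1 was at -1.23 in the last. Beside these, Rara fell by 0.42, and the other 11 of 14 tested genes of the pathway were not called, Rarb (0.18) and Stra8 (0.16) among them. Of the 14, 2 passed the filter with no untreated library above 0, Cyp26b1 among them. Of 16 Krüppel-like factors 0 rose and 6 fell (37.5%, against 11.1% of all genes) with limma. At an unadjusted p under 0.05 the numbers were 0 and 10. Klf15, a metabolic regulator, had 1.68, 1.93 and 1.78 against 3.69, 3.68 and 3.62 (-1.87). Klf2 (-1.15), Klf6 (-0.71), Klf4 (-0.47), Klf9 (-0.47) and Klf11 (-0.33) fell too, and the Klf11 call was lost without BMH-21 replicate 1 or 3 or untreated replicate 1 or 2.

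Pluripotency factors fell in part. Of 26 tested, 13 fell (50%, against 11.1% of all genes) and 0 rose with limma, where unadjusted p-values gave 18 and 0. Their median was -0.30. Sox2, a core factor of the network, had 8.34, 8.44 and 8.43 against 9.42, 9.33 and 9.26, a difference of -0.93 (adjusted p = 2.1e-13). Nanog had 8.32, 8.45 and 8.38 against 9.06, 9.08 and 8.86 (-0.61, adjusted p = 5.8e-07). Treated values lay below all untreated values in both. Pou5f1, which encodes OCT4, had 10.53, 10.68 and 10.58 against 10.71, 10.73 and 10.54 and was not called (-0.06), and neither were Esrrb (-0.22) and Tfcp2l1 (0.02). The other falls included Gbx2 (-1.33), Klf2 (-1.15), Prdm14 (-1.14), Zfp42 (-0.75) and Tbx3 (-0.56), genes of the naive state, and Fgf4 (-0.73). In bulk RNA, fewer cells of a type and less RNA per cell cannot be told apart. Fits without 1 library gave 11 to 14 lower factors.

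Factors of the formative state and of neural fate, which follow the naive state, fell as well. Of 26 tested, 11 fell (42.3%, against 11.1% of all genes) and 1 rose (3.85%, against 8.43%). Foxd3, a forkhead factor required for the exit from naive pluripotency (chr4:99656299-99658622), had 4.25, 4.32 and 4.42 against 6.11, 6.12 and 6.12, a difference of -1.79 (SE 0.12, adjusted p = 1.6e-26). Insm1 (-1.64), the zinc finger factors Zic5 (-1.40) and Zic2 (-1.21), Fgf15 (-0.95), Pou3f1 (-0.86), Sox1 (-0.72), Fgf5 (-0.70) and Sox11 (-0.63) fell. Otx2, a factor of the epiblast and forebrain, fell by 1.00. Hey2, a Notch target, rose by 0.86. Dnmt3a (-0.10) and Dnmt3b (-0.13), the de novo methyltransferases, were not called. The number higher was 2 without BMH-21 replicate 1 or 3. Of 17 extraembryonic and mesendoderm factors, Pdgfra (0.71) and Sox7 (0.66) rose, and Gata3 (-0.75), Gata4 (-0.52) and Tfap2c (-0.32) fell. The number lower was 1 without BMH-21 replicate 1 or untreated replicate 1 or 2 and 5 without untreated replicate 3. Of the 17, 3 passed the filter with no untreated library above 0. The Gata3 call was lost with values below 0 set to 0 (-0.12). The Gata4 call was lost without BMH-21 replicate 1 or 3 or untreated replicate 1 or 2.

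On the deposited and centred scales together, RNA polymerase I and nucleolar genes were called lower at shares near the 11.1% of all genes. None was called higher, against 8.43% of all genes. Of 16 genes of the RNA polymerase I machinery 0 were called higher and 2 lower (12.5%) with limma, also at an unadjusted p under 0.05. The 2 were Polr1b, the second largest subunit (-0.29), and Ubtf, the upstream binding factor (-0.29). Both calls were lost without BMH-21 replicate 1 or 3 or untreated replicate 1 or 2. Polr1a, the largest subunit, had 7.96, 8.28 and 8.20 against 8.18, 8.20 and 8.12 (-0.02), and the initiation factor Rrn3 was at 0.04. Centring alone, median-ratio or quantile scaling called 3 higher and 2 lower. Of 60 nucleolar and assembly proteins 0 were higher and 6 lower (10%), or 1 and 12 at an unadjusted p. Only 1 was lower without BMH-21 replicate 1 or untreated replicate 1 or 2, and 2 were without BMH-21 replicate 3. The other scalings gave 6 to 8 higher and 15 to 17 lower, where 2187 to 2823 of all genes were higher and 2420 to 2560 lower. Imp3 (-0.47) kept its call in each fit without 1 library, Gnl3 fell by 0.36, and Ncl (0.07), Npm1 (-0.07) and Fbl (0.09) were not called.

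Of 76 tested cytosolic ribosomal proteins 0 were higher and 1 lower with limma, and 0 and 2 at an unadjusted p. The 1 gene, Rpl10a (-0.27), overlapped between groups and lost its call in 5 of the 6 fits without 1 library, all but the one without untreated replicate 3. Ribosomal protein genes share sequence with processed pseudogenes, so their single values are uncertain. Of 74 mitochondrial ribosomal proteins 0 were higher and 2 lower (1 and 5 at an unadjusted p), and both calls were lost without BMH-21 replicate 1 or 3 or untreated replicate 1 or 2. In contrast, 8 of 14 noncoding host RNAs of small nucleolar RNAs fell (57.1%, against 11.1% of all genes) and 0 rose. The numbers were 10 and 0 at an unadjusted p, and the median was -0.37. The largest of these falls were Snhg5 (-0.75), Snhg14 (-0.57) and Snhg11 (-0.54), while Gas5 (-0.27) and Snhg1 (-0.20) were not called. Leaving out untreated replicate 1 gave 5 falls, and the other 5 fits gave 6 to 9. Rn45s, which stands for the ribosomal RNA precursor and was looked at after its values were seen, had 12.24, 12.42 and 12.45 against 12.21, 12.58 and 11.35 and was not called (0.33, adjusted p = 0.20). Poly(A) selection removes most ribosomal RNA, so this value does not measure its synthesis.

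Other regulators of RNA production changed at single genes. Mxd1, a MAX partner that opposes MYC, rose by 1.50 and Mycn fell by 0.80 (7.59, 7.81 and 7.72 against 8.52, 8.57 and 8.42), within 3 higher and 3 lower of 12 genes of the MYC and MAX network. In this network 1 gene was lower without BMH-21 replicate 1 or 3 or untreated replicate 1 or 2, and the number higher was 1 without BMH-21 replicate 2 or untreated replicate 2 or 3. Hexim1, the inhibitor of the elongation kinase P-TEFb, rose by 0.51, and Hexim2 (-0.61), Ccnt2 (-0.54) and Cdk9 (-0.29) fell, out of 18 genes of elongation control. The Cdk9 call was lost without BMH-21 replicate 1 or 3 or untreated replicate 1 or 2, and the other scalings gave 4 to 7 higher genes of the 18. Of 16 splicing kinases and SR proteins 0 rose and 5 fell (31.2%, against 11.1% of all genes), led by Clk2 (-0.84) and Srsf4 (-0.42). At an unadjusted p the numbers were 0 and 8. Falls numbered 2 without BMH-21 replicate 1 or untreated replicate 1 or 2, 3 without BMH-21 replicate 3 and 8 without untreated replicate 3. Of 13 polycomb and DNA methylation genes Suz12 (-0.35) and Phf19 (-0.32) fell (15.4%, against 11.1% of all genes) and 0 rose. At an unadjusted p 3 fell and 0 rose. None was called lower without BMH-21 replicate 1 or untreated replicate 2, and 1 was without BMH-21 replicate 3 or untreated replicate 1.

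Among other stress pathways, 6 of 12 tested genes of the unfolded protein response fell. The remaining lists gave calls in both directions or, for NRF2 targets, rises only. Hspa1a rose by 1.43 (5.13, 5.18 and 5.07 against 3.69, 3.64 and 3.77) and Hspa1b by 1.04. These 2 HSP70 genes are near-identical copies, so the reads between them are uncertain. The cochaperone Dnajb1 rose by 0.59, and Hsph1 (-0.19) and Hspa8 (-0.20) were among the 11 of 15 chaperones not called. Chordc1 (-0.33) fell in the fit of all libraries and lost its call without BMH-21 replicate 1 or 3 or untreated replicate 1 or 2. Of 18 ATF4 targets 3 rose (Sesn2 1.27, Atf5 1.24, Ddit3 0.43) and 4 fell, or 16.7% and 22.2%. The Ddit3 call was lost without BMH-21 replicate 2 or untreated replicate 1. Atf4 itself fell by 1.00 (6.36, 6.49 and 6.43 against 7.47, 7.53 and 7.26) and Chac1, a glutathione-degrading enzyme, by 1.19, while Asns (-0.08), Psat1 (-0.06) and Trib3 (-0.24) were not called. The unfolded protein response had 6 lower (50%, against 11.1% of all genes) and 0 higher of 12 with limma, also at an unadjusted p. Xbp1 fell by 0.67, Herpud1 by 0.63, Pdia4 by 0.55 and Manf by 0.44, and 6 of the 12 were not called. The Hspa5 call (-0.27) was lost without BMH-21 replicate 1 or 3 or untreated replicate 1 or 2. Fits without 1 library gave 4 to 6 lower genes of this response. On the list of 12 NRF2 targets 3 rose (25%) and 0 fell, or 4 and 0 at an unadjusted p. The 3 were Gclc (0.69), Nfe2l2 (0.51), the gene of NRF2 itself, and Nqo1 (0.49), also on the aryl hydrocarbon receptor list. The other scalings gave 7 higher, where 2187 to 2823 of all genes were higher. Hmox1, a sensitive target of oxidative stress, was not called (0.17).

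Among cell cycle genes, 11.5% of the G2 and mitosis list rose and 3.85% fell. In the replication and E2F list 3.12% rose and 6.25% fell. Over all genes these shares were 8.43% and 11.1%. Of 26 genes of G2 and mitosis, Gtse1 (0.79), Psrc1 (0.73) and Ckap2 (0.47) rose. Gtse1 encodes a p53-binding protein, and Ckap2 and Psrc1 encode microtubule-associated proteins. Cenpf (-0.33) fell in the fit of all libraries and lost its call without BMH-21 replicate 1 or untreated replicate 1 or 2, and 3 genes were lower without untreated replicate 3. The other scalings gave 5 or 6 higher and 4 or 5 lower. Ccnb1 (-0.06), Plk1 (-0.24), Cdc20 (0.04) and Aurka (-0.10) were not called. Of 32 replication and E2F genes E2f2 rose (0.46) and E2f8 (-0.41) and Cdt1 (-0.28) fell. Without BMH-21 replicate 1 there were 0 lower, and 1 without BMH-21 replicate 3 or untreated replicate 1 or 2. The other scalings gave 5 to 7 higher and 4 lower. Mcm2 (-0.04), Ccne1 (-0.20) and E2f1 (0.15) were not called.

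Survival and metabolic genes were called in differing shares. Of 11 BCL2 family genes outside the p53 list, 0 rose and Mcl1 (-0.27) fell (0 and 5 at an unadjusted p), a call that was lost without BMH-21 replicate 1 or 3 or untreated replicate 1 or 2, while 2 were lower without untreated replicate 3. The other scalings gave 4 lower. Of 20 cholesterol and fatty acid genes Hmgcs1 rose by 0.38 and Sc5d fell by 0.43. The other scalings gave 8 to 10 higher and 1 or 2 lower, where 2187 to 2823 of all 14666 genes were higher. Of 19 hypoxia and glycolysis genes 3 rose (15.8%) and 4 fell (21.1%), and 1 of the 19 passed the filter with no untreated library above 0. Adm, a vasodilator peptide, rose by 1.19 from 19 to 28 reads, and its call was lost with values below 0 set to 0. The hexokinase gene Hk2 (-0.56) and the glucose transporter gene Slc2a1 (-0.47) fell. Falls numbered 2 without BMH-21 replicate 1 or untreated replicate 1. Of 39 proteasome subunits and 35 subunits of complex I 0 were called with limma, where unadjusted p-values gave 1 lower subunit of the proteasome and 0 of complex I. Without untreated replicate 3, 1 proteasome subunit was lower.

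Of 12 NF-κB and interferon genes 4 rose (33.3%, against 8.43% of all genes) and Irf1 fell (-0.50). Of the 12, 1 passed the filter with no untreated library above 0. Cxcl10, a chemokine, rose by 2.36 (1.91, 2.19 and 1.93 against -0.77, 0.34 and -0.64) and Icam1 by 0.58. Cxcl1 had 9 to 22 reads against 3 to 4, and its call was lost with quantile normalization. Of 9 keratins tested Krt5, Krt15 and Krt7 rose, and Krt8 (-0.13), Krt18 (-0.16) and Krt19 (-0.23), the keratins of simple epithelia, were not called. Of the 9, 2 passed the filter with no untreated library above 0, Krt5 among them. Krt5 had 0.75, 1.03 and 0.95 against -2.16, -2.11 and -1.36, or 79 to 98 reads against 10 to 18 (2.79, with 2.05 after quantile normalization and 0.91 with values below 0 set to 0). Of 15 clock genes Tef (1.18) and Hlf (0.78), both PAR bZIP factors, rose, and Bhlhe40 (-0.73) and Ciart (-0.46) fell. Of 38 Hox genes in the table only 2 were tested, and both rose: Hoxc13 by 1.41 and Hoxb9 by 1.33.

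Genes of the 2-cell embryo, a state that rare stem cells enter in culture, were mostly near the detection limit. Of 26 listed genes 19 were tested, 7 of which passed with no untreated library above 0. Of the 19, 2 rose (10.5%, against 8.43% of all genes) and 0 fell, or 6 and 0 at an unadjusted p. Ddit4l, an mTORC1 inhibitor on this list, had 5.81, 6.05 and 5.91 against 3.16, 3.12 and 2.91 (2.86). Dux, the factor that starts this programme, had 12 to 22 reads against 3 to 11 with a difference of 1.40, which quantile normalization moved to 0.54 without a call. Zscan4c (0.18) and Zscan4d (0.32) were not called. Dux and Zscan4 are multicopy families whose reads are uncertain. The fit without BMH-21 replicate 1 gave 4 risen genes, and the other scalings 2 to 6.

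The numbered zinc finger genes, most of them encoding C2H2 factors, were called lower more often than the background. Of 321 tested, 103 fell (32.1%, against 11.1% of all genes) and 22 rose (6.85%), with a median of -0.19. Zfp719 fell by 1.09 (3.09, 3.35 and 3.33 against 4.40, 4.32 and 4.32) and Zfp746 by 1.02, while Zfp703 rose by 1.61, Zfp28 by 1.60 and Zfp365 by 1.28. Without BMH-21 replicate 1 61 were lower, where 846 of all genes were. Without untreated replicate 1 or 2 71 were lower, where 969 and 925 of all genes were. Of 36 tested histone genes 0 rose and Hist1h1c (-0.54) fell, the same at an unadjusted p. Replicative histone mRNAs lack a poly(A) tail, so most are poorly sampled here.

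**Figure D3:**
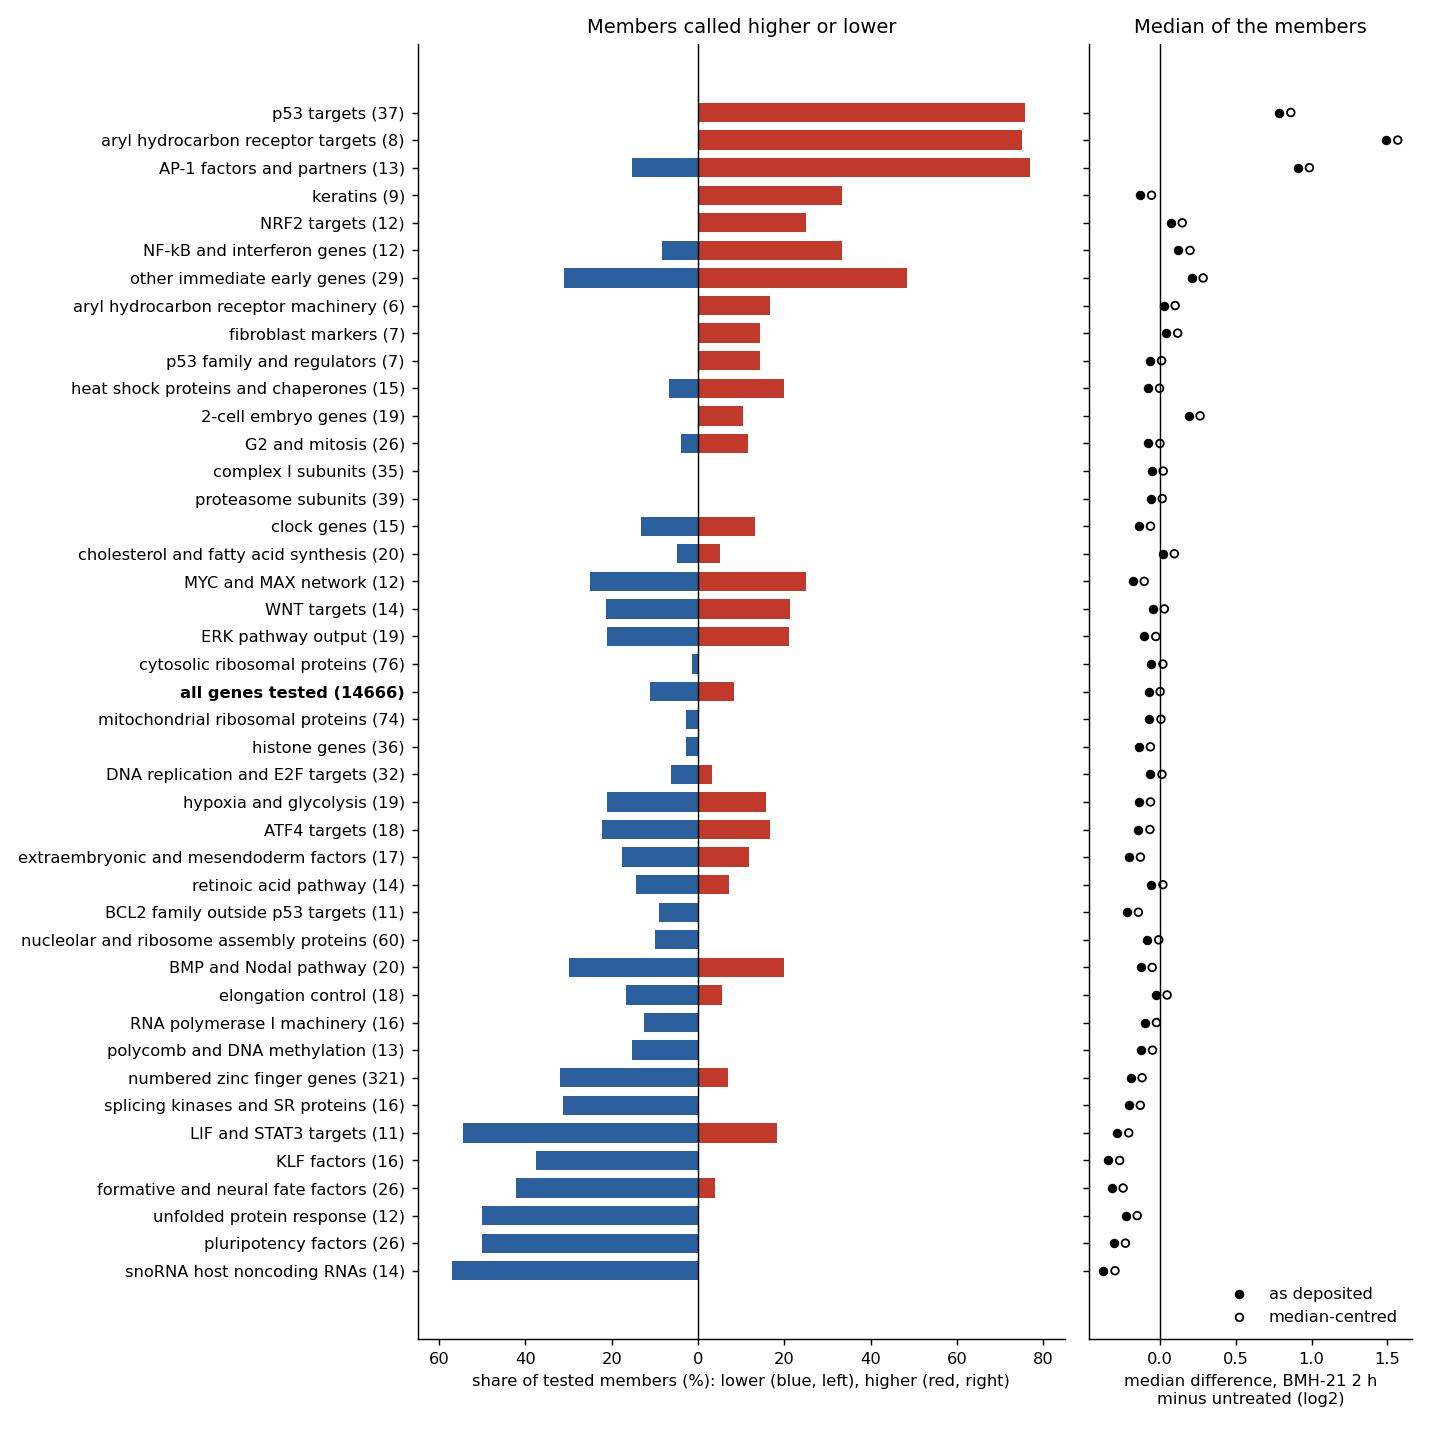
Share of tested members called higher (red, right) or lower (blue, left) in each list with at least 5 tested genes, with the number tested in brackets, and the median log2 difference of the members as deposited (filled) and median-centred (open). Targets of p53 (75.7% higher), aryl hydrocarbon receptor targets (75%) and AP-1 factors (76.9%) have the longest red bars, and host RNAs of small nucleolar RNAs (57.1% lower) and LIF and STAT3 targets (54.5%) the longest blue ones, beside 8.43% and 11.1% over all genes.

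The largest rises by a fixed rule took genes called in both fits with no overlap and a mean of at least 1 in the higher group. Cyp1a1, Cyp1b1, Fosl1, Ahrr and Plk2 were among them. Ltb4r1, a leukotriene receptor gene, rose by 2.88 (1.57, 1.47 and 1.74 against -1.26, -1.15 and -1.44), Pcdh8, a protocadherin gene, by 2.84, Pou4f3, a sensory neuron factor, by 2.82, and Itih3, an inhibitor heavy chain, by 2.80. Zfp750, a factor of epidermal differentiation, had 5.51, 5.79 and 5.75 against 2.96, 2.96 and 2.79 (2.78). Wnt9a, a secreted ligand, rose by 2.70 and Rsph6a, of the ciliary radial spoke, by 2.69. Several of these began near the detection limit. Ltb4r1 had 17 to 20 reads in untreated cells, Pou4f3 15 to 26 and Rsph6a 13 to 24, and with values below 0 set to 0 the differences were 1.59, 1.52 and 1.23. That setting gave 2.87 for Ahrr and 1.71 for Itih3.

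The largest falls began with Cyp26a1, Klf15 and Foxd3. Edn2, which encodes endothelin 2, had -0.37, -0.86 and -0.65 against 0.95, 1.24 and 1.03 (-1.70), which is 26 to 36 reads against 90 to 107, and -1.07 with values below 0 set to 0. Neat1, the noncoding RNA that builds paraspeckles, had 5.06, 5.21 and 5.00 against 6.74, 6.55 and 6.71 (-1.58, adjusted p = 4.5e-25). Ankrd34a (-1.62), the galactosyltransferase gene B3galt6 (-1.53), Fjx1 (-1.52), the sulfotransferase gene Chst5 (-1.49), 2810013P06Rik (-1.43) and Ppapdc2 (-1.40) also belonged to this group, with Insm1, Pim1 and Zic5. None of the 15 largest rises or 15 largest falls lost its call in a fit without 1 library. Their choice from these same libraries, by size and lack of overlap, made this likely.

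Genes with few exons were called lower more often. Exon number is the most exons in any basic GENCODE M21 transcript, known for 14556 of the 14666 genes (99.2%). Of 471 genes with 1 exon, 133 were called lower (28.2%), and the share fell to 22.1% with 2 exons, 13.6% with 3 to 5, 9.08% with 6 to 10 and 8.54% with over 10. Among the falls described above, Foxd3, Sox2, Insm1, B3galt6, Fjx1 and Fzd7 have 1 exon. The share called higher was 7.43% with 1 exon, 13.2% with 2 and 6.61% with over 10. The difference between intronless genes and genes with introns (10.5% lower) was also seen without histones (30.1%) and at untreated log2 values of at least 1 (36.6% against 11.8%). With the trend on GC content removed, an alternative chosen after the data had been seen, the shares were 27.4% and 9.99%. In fits without 1 library they were 20.2% to 27.4% and 5.24% to 11.8%. Without a filter on low values they were 10.1% of 1302 intronless genes and 6.28% of genes with introns. These shares describe classes of genes and carry no test, since genes are not replicates.

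The share called higher also moved with base content and length. It was 4.19% in the lowest of 5 equal classes of GC content and 13.1% in the highest, while the share called lower was 13.8% and 10.2%. Across 5 equal classes of gene span, the share called higher was 10.5% in the shortest and 4.78% in the longest, and the share called lower 13.9% and 8.63%. With the trend on GC content removed, 1269 genes were higher and 1536 lower, and the counts of p53 targets (28 higher) and receptor targets (6 higher) were as before. Among the named genes Chordc1, Hspa5 and Mrpl17 lost their call in that fit. The part of gene span was not tested.

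**Figure D4:**
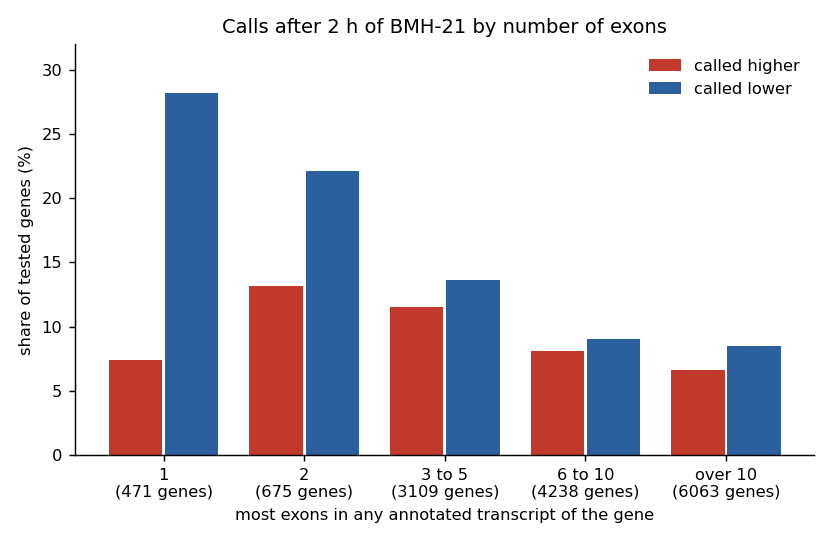
Share of tested genes called higher (red) or lower (blue) after 2 h of BMH-21 by the number of exons, with the number of genes under each class. The blue bars go from 28.2% with 1 exon to 8.54% with over 10 exons, and the red bars lie between 6.61% and 13.2%.

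BMH-21 was set beside CX-5461 at the same dose and time, to see which of these values differed between the inhibitors. This comparison uses the same BMH-21 2 h libraries. Of 14666 genes 357 were higher (2.43%) and 221 lower (1.51%) with BMH-21, so that 61.8% of the calls were higher. This balance turned with median-ratio factors (803 higher, 1405 lower), with quantile normalization (775 and 1072), and without BMH-21 replicate 2 (152 and 207), CX-5461 replicate 2 (170 and 188) or CX-5461 replicate 3 (173 and 176). All 6 receptor targets that rose against untreated cells were higher with BMH-21 than with CX-5461. Cyp1a1 had 0.42, -0.17 and 0.15 with CX-5461, so that BMH-21 was higher by 7.24 (adjusted p = 1.2e-80). Cyp1b1 was higher by 4.99, Ahrr by 3.60, Tiparp by 1.86, Cyp1a2 by 1.50 and Nqo1 by 0.51. Tiparp stood at 5.28, 5.13 and 5.09 with CX-5461, below the BMH-21 values of 6.89 to 7.16 and also below the untreated ones.

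The p53 and AP-1 genes gave other values in this comparison. Cdkn1a differed by 0.21, Plk2 by 0.10, Mdm2 by -0.01 and Fosl1 by 0.08, none of which passed the test, which does not show that the inhibitors act alike. Trp73 was lower with BMH-21 by 0.43. Of the 37 p53 targets 3 were higher and 0 lower than with CX-5461. Of 26 genes of G2 and mitosis 8 were higher and 0 lower, Aurka (0.51) and Plk1 (0.35) among them, and of 36 histone genes 11 were higher and 0 lower. Among the largest rises, Pcdh8 (1.58) and Itih3 (1.47) were higher with BMH-21 and Pou4f3 was lower (-0.50). Of the largest falls, Klf15 (-0.57), Neat1 (-0.39), B3galt6 (-0.64) and Ppapdc2 (-1.01) were lower with BMH-21. Other listed genes higher with BMH-21 included Id4 (1.06), E2f2 (0.80), Hlf (0.78), Sox7 (0.72), Klf6 (0.70), Mxd1 (0.69), Atf5 (0.67), Axin2 (0.61), Ndrg1 (0.55), Nfe2l2 (0.45), Gclc (0.44) and Hexim1 (0.39). Without BMH-21 replicate 2 or 3 or CX-5461 replicate 2 or 3 the 578 calls fell to between 349 and 359.

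BMH-21 at 4 h was compared with 2 h, again sharing the 2 h libraries, to see which early values went on. At 4 h 3041 genes were higher (20.7%) and 5054 lower (34.5%) than at 2 h. The strongest receptor targets were lower again at 4 h: Cyp1a1 by 1.30, Ahrr by 1.34, Cyp1b1 by 1.11 and Tiparp by 0.67, and the means at 4 h were 6.07 for Cyp1a1 and 4.25 for Cyp1b1. Cyp1a2 and Nqo1 were higher at 4 h, by 0.46 and 0.37. Of the p53 targets Cdkn1a (0.03) and Gdf15 (0.23) were not called between the times, and Fas (3.22), Mdm2 (0.79) and Plk2 (0.35) were higher at 4 h. Fosl1 was higher by 1.88 and Krt5 by 4.29. Of the falls, Foxd3 was lower by a further 2.93, Zic5 by 2.81, Ankrd34a by 1.99, Cyp26a1 by 1.48, Klf15 by 1.07, Pim1 by 1.02 and Nanog by 1.15. Neat1 (0.70), B3galt6 (0.35) and Ppapdc2 (0.51) were higher at 4 h than at 2 h, and Pou5f1 (-0.17) was not called.

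**Figure D5:**
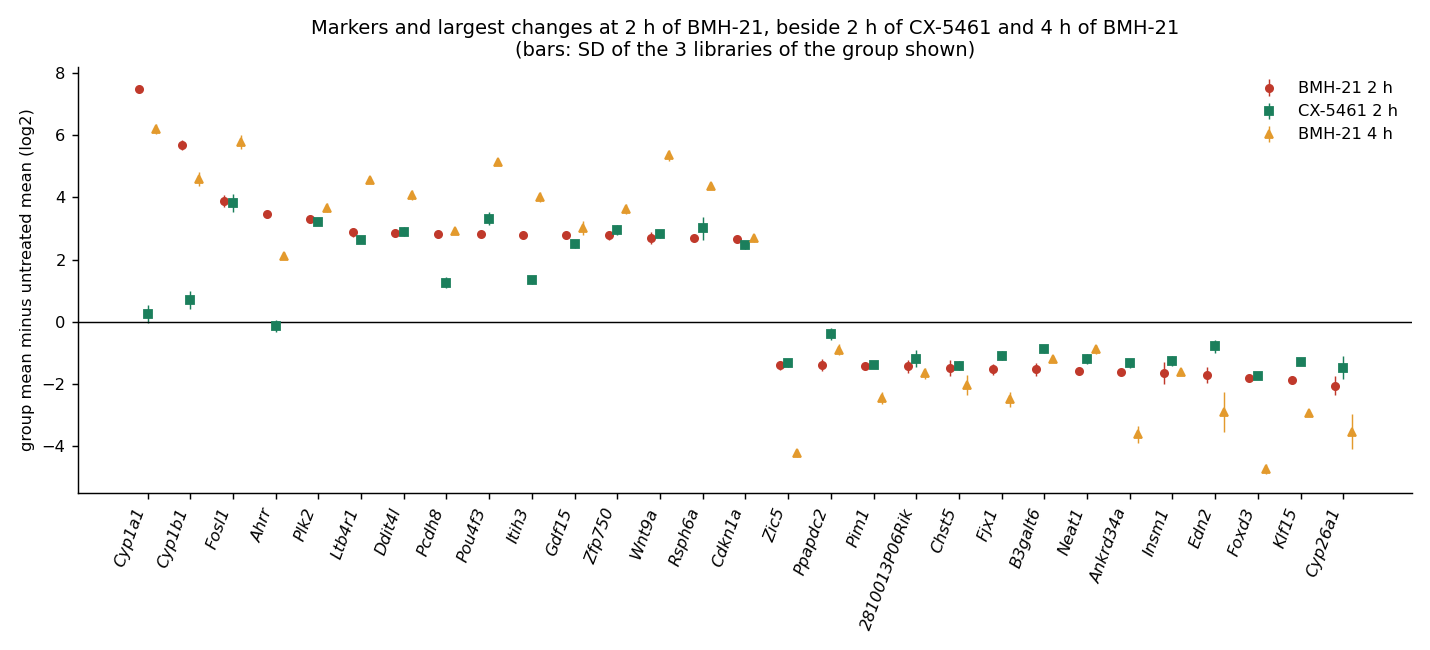
Group mean minus untreated mean (log2) of the 3 markers and of the largest rises and falls that are named for BMH-21 2 h (red circles), CX-5461 2 h (green squares) and BMH-21 4 h (orange triangles). Bars are the SD of the 3 libraries of the group shown. Cyp1a1 stands at 7.50 with BMH-21 at 2 h while CX-5461 lies near 0, Cdkn1a lies close together in all 3 groups, and Foxd3 is much lower at 4 h.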

How the data were processed

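RNA-seq of E14 cells was analysed from 1 table of the authors, with a row per gene symbol and a column per library, 3 libraries in each of 7 groups. Its log2 values were deposited as voom-normalized expression, per the file headers, that is log2 of reads plus 0.5 over a scaled library size. The submitters' processing notes name Trim Galore 0.5.0, TopHat2 2.1.1, R 4.0.5, DESeq2 1.30.1, edgeR 3.32.1, limma 3.46.0 and build mm10, with no role or order. The counter, the annotation and its use of strand are not given in the sources used here, so reads of overlapping and antisense genes cannot be told apart. Read numbers recovered from the log2 values lay within 1.8e-08 of whole numbers. They serve here for depth, the read ranges of genes and CPM sums. The alternatives with median-ratio factors, another offset or voom weights also use them.

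Groups were compared with limma 3.58.1 in R 4.3.3, with a mean for each of 7 groups over all 21 libraries, a mean-variance trend in the variance prior, and Benjamini-Hochberg adjustment over all 14666 genes at 0.05. Each fit was run on the deposited values and on values centred on each library's median, and a call needs both. The variance prior had 112 degrees of freedom as deposited and 8.53 after centring, beside 14 residual ones. The printed SE and adjusted p-values are from the deposited fit, whose variances were thus drawn more strongly towards the trend. As deposited, 291 genes had an own variance over 2 times the moderated one, and 79 of them were called. The same fits were also run on simulated reads with 200 changed genes and the same dispersion for every gene. That simulation lacks the shifts between library medians seen here, so it does not check the calls against them. Alternatives covered scaling, filter, offset, variance model, a replicate block and leaving out each library. Those on GC content and the deposited scale alone were chosen after the data had been seen.

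The members, the 43 gene lists (6 by symbol pattern) and the rules were chosen with earlier results of these data known. Named genes are Cyp1a1, Fosl1 and Cdkn1a, the 15 largest rises and 15 largest falls (called, no overlap, mean of at least 1 in the higher group, ranked by the smaller of both fits), and for each list its first 4 genes and up to 6 largest called members. Some of these genes are counted but not reported here by name. Genes outside this rule that appear in the text were found by promoter sequence or chosen after their values were seen. Library medians, single libraries and promoter windows are described in the report. Plots were drawn with matplotlib 3.10.9.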

Additional observations from a re-analysis of the deposited data

Results flagged for a closer look

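The genes named here had an effect of BMH-21 at 2 h against untreated cells that differed from the effect of CX-5461 at 2 h or of BMH-21 at 4 h. The difference between the groups was tested itself in the same limma fit, and both comparisons share the BMH-21 2 h libraries. Values are log2 differences.

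BMH-21 at 2 h minus CX-5461 at 2 h was 7.24 for Cyp1a1, 4.99 for Cyp1b1 and 3.60 for Ahrr, the 3 aryl hydrocarbon receptor targets among the largest rises. It was 1.58 for Pcdh8 (adjusted p = 3.3e-12) and 1.47 for Itih3 (adjusted p = 5.3e-10), which rose more with BMH-21, and -0.50 for Pou4f3 (adjusted p = 0.037), which rose less. Among genes that fell, it was -0.57 for Klf15, -0.39 for Neat1, -0.64 for B3galt6 and -1.01 for Ppapdc2.

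BMH-21 at 4 h minus 2 h was -1.30 for Cyp1a1, -1.11 for Cyp1b1 and -1.34 for Ahrr, so these 3 stood lower at the later time. Other genes that had risen stood higher at 4 h. The difference was 1.88 for Fosl1, 0.35 for Plk2, 1.69 for Ltb4r1, 1.22 for Ddit4l, 2.31 for Pou4f3, 1.23 for Itih3, 0.86 for Zfp750, 2.66 for Wnt9a and 1.68 for Rsph6a.

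Most of the genes that had fallen stood lower still at 4 h. The difference was -1.48 for Cyp26a1, -1.07 for Klf15, -2.93 for Foxd3, -1.18 for Edn2, -1.99 for Ankrd34a, -0.97 for Fjx1, -1.02 for Pim1 and -2.81 for Zic5. Neat1 (0.70), B3galt6 (0.35) and Ppapdc2 (0.51) had fallen at 2 h and stood higher at 4 h.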

How the results depend on the processing

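Of 266 named genes 190 were called, of which 147 kept the call in all 6 fits without 1 library, 158 in the 15 other alternatives and 142 in all of them. Of the 190, 0 changed sign. The balance of higher and lower genes turned with median-ratio factors in both comparisons at 2 h. The 1237 genes called higher became 2725 with centring only, 2823 with median-ratio factors and 2187 with quantile normalization, and 990 to 1256 when 1 library was left out. The 1621 genes called lower became 2560 with centring only and 2447 with quantile normalization, and 846 to 1804 when 1 library was left out, with 846 without BMH-21 replicate 1, 969 without untreated replicate 1 and 925 without untreated replicate 2. The 411 rises of at least 2-fold became 258 with quantile normalization, 268 with a filter above 2 and 198 with values below 0 set to 0. The 63 falls of at least 2-fold became 40 with a filter above 2 and 127 with no filter. The 578 genes that differed from CX-5461 became 2261 with centring only (1149 higher, 1112 lower), 2208 with median-ratio factors (803 and 1405) and 1847 with quantile normalization (775 and 1072), and 349 to 594 when 1 library was left out. The 8095 genes that differed between 4 h and 2 h stayed within 1.5 times under these alternatives. Causes were not tested.

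Same-numbered BMH-21 and untreated libraries deviated together with correlations of 0.0665, -0.0104 and 0.0797. Differently numbered ones gave -0.0818 to 0.0154. These weak values do not settle whether replicate numbers pair the libraries. A fit with the replicate number as a block gave 1199 higher and 1481 lower genes. Depth limits genes near 3 reads, such as Dux, Cxcl1 and Cyp26b1. Folds of genes with low untreated values moved by over 1.5 times when values below 0 were set to 0 or with quantile normalization, among them Fosl1, Ahrr, Fas, Cyp26a1 and Krt5.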
